A study of Rattus norvegicus with 29 samples.

Results

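A set of 104 transcripts stood higher in rat kidney tubule cells after 24 h with the dioxin TCDD (2,3,7,8-tetrachlorodibenzodioxin) and after 24 h with trichloroethylene, and lay near control with acetaminophen and with gentamicin. The members were chosen from the measured levels. For each transcript, L was the log2 ratio of the mean level in treated libraries to that in 24 h control libraries, with 1 TPM added to both. TPM, the authors' unit of level, is a transcript's share of a library, scaled to a fixed total and corrected for transcript length. A member had a mean of 1 to 500 TPM over the 5 control libraries, an L of at least 0.6 with both TCDD and trichloroethylene, and an L within 0.5 of 0 with both acetaminophen and gentamicin. Of 28420 transcripts in the files, 13730 were in the control range and 104 of these (0.757%) met every condition. The limit of 150 members was not reached, so none was dropped for rank.

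The cells were primary renal proximal tubule epithelial cells of Rattus norvegicus. The tested cultures received TCDD, the industrial solvent trichloroethylene, the painkiller acetaminophen or the antibiotic gentamicin, and the control cultures carry the label control. All were sampled at 6 h or 24 h. This gave 10 groups of 3 libraries each, apart from the 6 h control with 2 (replicates 2 and 3), 29 libraries in all. The labels give no dose, vehicle, strain, age or sex. They also do not say whether replicates came from different animals or dishes, so the p-values may measure technical spread alone. A further condition counted in the series' design text is not analysed here.

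TCDD is a long-lived ligand of the aryl hydrocarbon receptor, a transcription factor that moves to the nucleus once bound, pairs with its partner Arnt and switches on genes of xenobiotic metabolism such as those of the cytochrome P450 family. Trichloroethylene is oxidised by cytochrome P450 enzymes or joined to glutathione, and the glutathione products are processed further in the proximal tubule, which reabsorbs most of what the kidney filters. The files name transcripts by Ensembl identifier alone and do not pair them with genes. The gene table used here held an Ensembl identifier for 0 of its 47357 genes. Hence no member could be tied to a gene, a pathway or a sequence, the proximal tubule markers were not checked, and 4 members stand below by identifier.

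Libraries held between 8243698 and 11446612 estimated counts. Their fragment lengths differed between groups and are given as the bases by which effective length falls short of transcript length. At 24 h these averaged 234 ± 3.91 with TCDD, 255 ± 5.90 with trichloroethylene, 254 ± 21.0 with acetaminophen, 262 ± 2.65 with gentamicin and 279 ± 9.60 in controls (SD, n = 3 each). The mean was thus lowest with TCDD and highest in controls, while acetaminophen libraries overlapped both groups, with a range of 233 to 275 bases. Within TCDD at 6 h, replicate 3 stood apart at 278 bases, beside 249.9 and 254 bases in replicates 1 and 2.

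The members spanned most of the abundance range. Their mean over the 5 controls ran from 1.02 to 427 TPM with a median of 10.6 TPM, beside 16.8 TPM over all transcripts in the range. By that mean, 27 members lay at up to 5 TPM, 42 between 5 and 20 TPM, 28 between 20 and 100 TPM and 7 above 100 TPM. They were shorter than the transcripts they were drawn from: median length was 1530 bases (quartiles 998 and 2201 bases) against 1956 bases (quartiles 1230 and 3072 bases). Only 6 members (5.77%) exceeded 3000 bases, against 26.1% of all transcripts in the range. These lengths are a description, because TPM depends on effective length, which moved with the fragment lengths above. Estimated counts were whole in every library for 62 members (59.6%, against 61.3% in the range). For the other 42 members, the authors' tool divided reads between transcripts, and a shift between isoforms or near-identical genes cannot be told from a change in level.

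At 24 h the members' levels were the values that chose them, and they are described here without a test. L had a median of 1.04 with TCDD (quartiles 0.83 and 1.26, highest 3.59) and of 0.82 with trichloroethylene (quartiles 0.72 and 0.99, highest 1.64). It reached 1, a doubling on this scale, in 55 members with TCDD and in 26 with trichloroethylene. It reached 2 in 4 members with TCDD and in 0 with trichloroethylene. With acetaminophen the median was 0.17 and with gentamicin -0.01. Over all 13730 transcripts in the range the medians were -0.40 with TCDD, 0.01 with trichloroethylene, 0.10 with acetaminophen and -0.22 with gentamicin. In counts the median was fitted over all tested transcripts, a different set from those in the range. For TCDD it was 0.02 with TMM, edgeR's trimmed-mean library factors, and -0.06 with total counts. TMM itself places most transcripts near no change, so the 0.02 cannot show whether the lower TCDD median is absent in counts. The -0.06, scaled by library total alone, was nearer to control than the TPM median of -0.40. What lowered the TPM median with TCDD was not tested. In these bulk cultures, fewer cells of a kind and less of a given transcript per cell cannot be told apart.

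**Figure D1:**
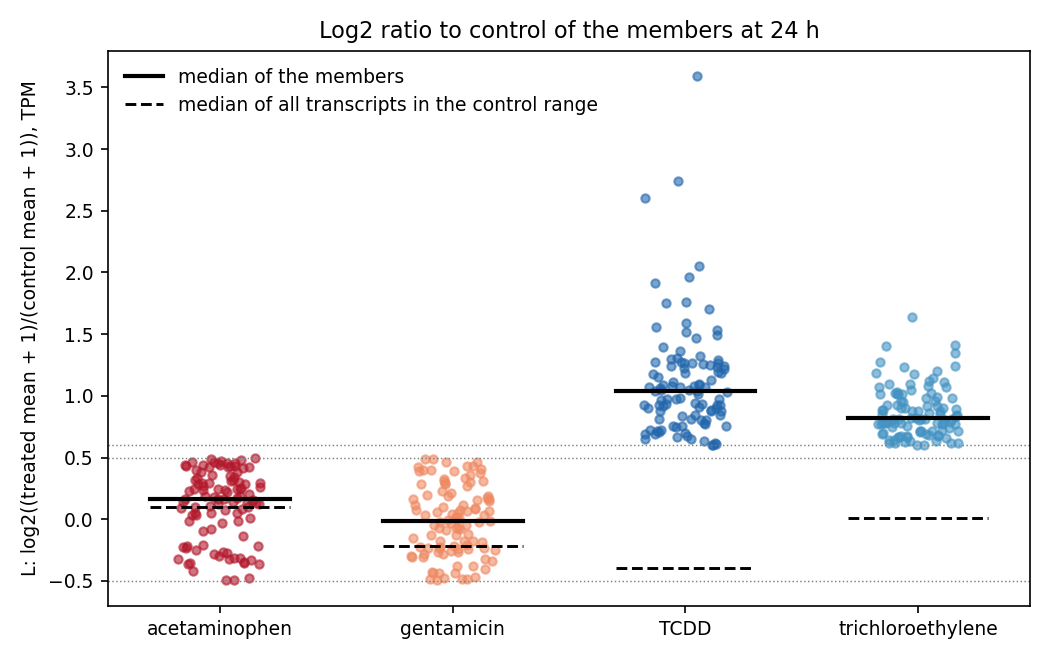
L, the log2 ratio to the 24 h control mean of TPM + 1, is shown for each of the 104 members (points) in the 4 compounds. Solid bars are member medians (1.04 with TCDD and 0.82 with trichloroethylene), dashed bars the medians of all 13730 transcripts in the control range, and dotted lines the limits 0.6, 0.5 and -0.5 of the rule. The rule itself places the TCDD and trichloroethylene points above 0.6 and the others within 0.5 of 0.

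The limits cut through a continuous spread of values. The member just inside the trichloroethylene limit had an L of 0.6019 and the nearest transcript outside it 0.5993. For TCDD these were 0.6010 and 0.5830, for acetaminophen 0.4947 and 0.5001, and for gentamicin -0.4960 and 0.5024. Failing a single limit kept out 207 transcripts for trichloroethylene, 114 for TCDD, 243 for acetaminophen and 108 for gentamicin.

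Library by library, the members' summed level at 24 h comes from the values that chose them and is described without a test. At 24 h it was 6173, 5432 and 6248.5 TPM with TCDD and 5171, 5353 and 5209 TPM with trichloroethylene. With acetaminophen it was 3050.2, 3361 and 2870.5 TPM, with gentamicin 2941, 2926 and 2879 TPM, and in controls 2639, 2868 and 3164 TPM. No TCDD or trichloroethylene library overlapped a library of the other groups at that time, while acetaminophen and gentamicin overlapped the controls. Nothing is read from this gap, since the rule sets the same groups apart.

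At 6 h the same sum was 3427, 3353 and 3368 TPM with acetaminophen, 3615, 3436 and 3192 TPM with gentamicin and 3605, 3659 and 2962 TPM with TCDD. It was 3011, 2994.5 and 3267 TPM with trichloroethylene and 3384 and 3301 TPM in controls. TCDD replicate 3, whose fragments were the longest of its group, was the lowest of all 6 h libraries.

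**Figure D2:**
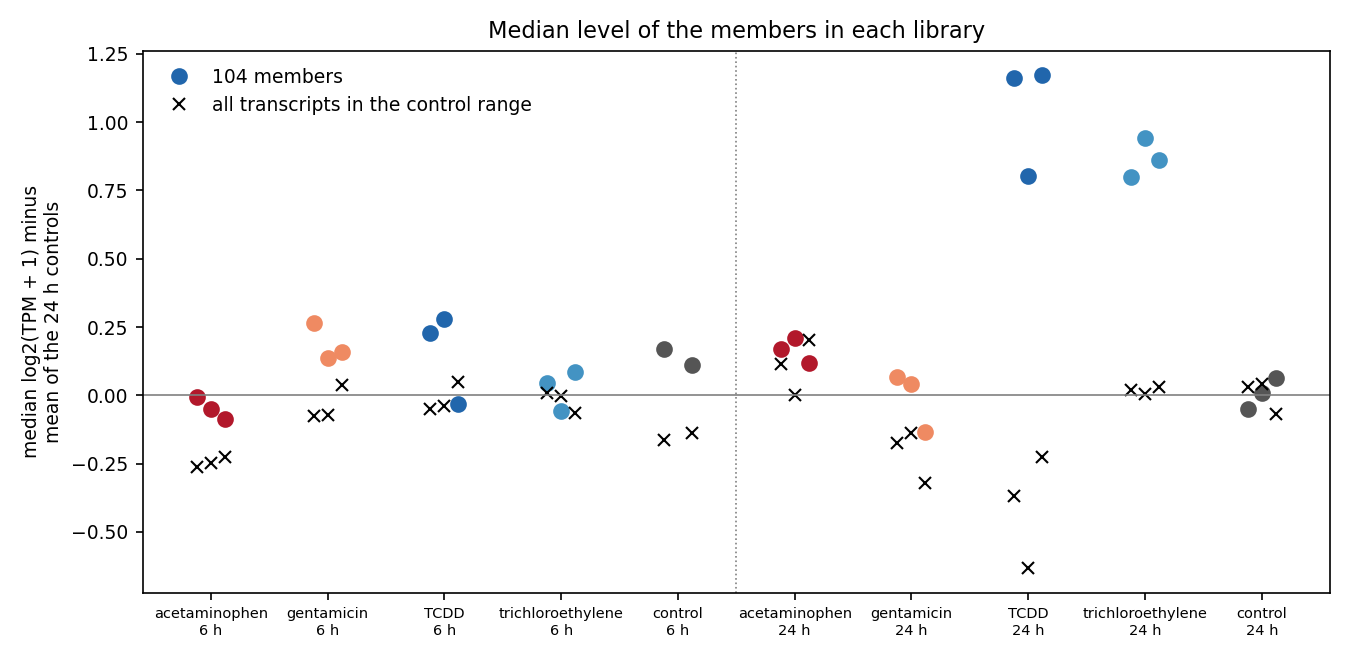
Each point is 1 library: coloured circles give the median over the 104 members, and black crosses the median over all transcripts in the control range, of log2(TPM + 1) minus the mean of the 24 h controls. TCDD libraries at 24 h lie at 1.16, 0.80 and 1.17 for the members and at -0.37, -0.63 and -0.23 for all transcripts, and trichloroethylene libraries at 0.80, 0.94 and 0.86 beside 0.02, 0.01 and 0.03.

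TCDD replicate 2 at 24 h was the lowest of its group in both measures, with a member median of 0.80 against 1.16 and 1.17 in replicates 1 and 3, on the log2 scale relative to the 24 h controls. Without it, 115 transcripts met the rule, 103 of them members. The 3 trichloroethylene libraries lay close together, and the median coefficient of variation of a member was 9.26% there, beside 18.8% with TCDD and 15.7% in controls at 24 h.

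In 92 members every TCDD library lay above every 24 h control library, as did 18.1% of all transcripts in the range, and in 0 members every one lay below (48.6%). For trichloroethylene the counts were also 92 above (29.1%) and 0 below (24.2%). Both conditions held in 87 members, against 11.6%. Nothing is read from these counts, since the rule used the same contrasts. With acetaminophen 25 members lay wholly above the controls (37.3% of the range) and 12 wholly below (25.6%), and with gentamicin 17 above (24.6%) and 14 below (42.1%). An L within 0.5 therefore still left 37 and 31 members with groups that did not overlap.

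TCDD gave the higher level of the 2 compounds in 75 members and trichloroethylene in 29. The TCDD level minus the trichloroethylene level, in log2(TPM + 1), had a median of 0.16 over the members and ran from -0.68 to 2.92. Over all transcripts in the range its median was -0.40. Nothing is read from that gap, since the rule used both groups. All TCDD libraries were above all trichloroethylene libraries in 25 members (12.8% of the range) and below them in 5 (50.7%). Counts scaled with TMM placed the 2 compounds further apart. There the median fitted log2 change of the members at 24 h was 1.55 for TCDD and 0.91 for trichloroethylene. All tested transcripts had medians of 0.02 and 0.01 on that scale. With fragment length added to the fit as a covariate, the members' medians were 1.19 for TCDD and 0.72 for trichloroethylene, with 99 and 100 members above 0. The lowest values were then -2.12 and -0.74. The change was at least 0.6 in 87 members for TCDD and 65 for trichloroethylene, beside 104 and 101 without the covariate. Fragment length moved with the compound at 24 h, and its part in these values was not tested further.

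The member with the highest TCDD L (3.59, length 2642 bases; chosen after its values were seen) had 83.9, 45.4 and 103.5 TPM with TCDD at 24 h. With trichloroethylene it had 7.90, 10.8 and 9.40 TPM, and in controls 5.66, 5.23 and 5.68 TPM. Its TCDD libraries therefore lay above every other library, and its trichloroethylene libraries lay above the controls by far less, at an L of 0.67. With acetaminophen at 24 h it had 8.07, 8.22 and 7.61 TPM (L 0.46). These also lay above the controls and overlapped trichloroethylene, while gentamicin at 24 h overlapped the controls. At 6 h it had 5.42, 7.21 and 5.18 TPM with TCDD and 6.59 and 5.04 TPM in controls, so the groups overlapped. With gentamicin at 6 h it rose to 14.2, 10.9 and 9.11 TPM, which is 0.86 ± 0.27 on the log2 scale (SE; edgeR adjusted p = 0.0391). Its estimated counts were not whole, so a shift between isoforms or near-identical genes cannot be told from a change in its level.

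The member with the highest trichloroethylene L (1.64, length 2910 bases; likewise chosen afterwards) showed the opposite order. It had 21.7, 19.3 and 19.9 TPM with trichloroethylene at 24 h, against 5.72, 6.95 and 4.86 TPM in controls. With TCDD it had 16.2, 9.42 and 15.7 TPM. Both compounds lay above all controls, with TCDD replicate 2 the lowest of their libraries. With acetaminophen at 24 h it had 7.745, 8.86 and 8.22 TPM, also above all controls, while gentamicin overlapped them. The estimated counts of this member were not whole either, and the same limit on isoforms applies.

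ENSRNOT00000027849 (779 bases) had the highest lower value of the 2 ratios, with L at 1.54 for TCDD and 1.27 for trichloroethylene. At 24 h the TCDD libraries had 6.30, 7.22 and 9.41 TPM, the trichloroethylene libraries 7.64, 6.12 and 4.83 TPM and the controls 2.38, 1.86 and 1.70 TPM. With acetaminophen it had 2.99, 1.08 and 0.54 TPM and with gentamicin 1.16, 1.35 and 1.84 TPM. TCDD and trichloroethylene overlapped each other and lay above all other 24 h libraries.

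This transcript was sparsely counted, with a mean of 39 estimated counts per library with TCDD at 24 h and 7.33 in controls. At 6 h it had 1.60, 1.68 and 1.86 TPM with TCDD, 1.10, 1.50 and 2.59 TPM with trichloroethylene and 2.89 and 2.95 TPM in controls. All of these treated libraries were below both controls, but neither difference passed: the log2 changes of ENSRNOT00000027849 were -0.90 ± 0.48 with each compound (SE; edgeR adjusted p = 0.702 for TCDD and 0.407 for trichloroethylene). Acetaminophen against gentamicin at 6 h gave a log2 change of -1.47 ± 0.44 (edgeR adjusted p = 0.00619), which did not pass without gentamicin replicate 1 (-1.12, adjusted p = 0.051).

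ENSRNOT00000034810 was the most abundant member and a short one, at 384 bases. Its estimated counts were not whole, so a shift between isoforms or near-identical genes cannot be told from a change in its level. This transcript had 691, 884 and 739.6 TPM with TCDD at 24 h, 701, 628 and 573 TPM with trichloroethylene and 335, 352 and 499 TPM in controls. With acetaminophen it had 378, 470.0 and 326 TPM and with gentamicin 304, 284 and 415 TPM. Control replicate 3 was the highest control and still below every TCDD and trichloroethylene library.

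Its effective length, the number of places a fragment can start, averaged 160.6 bases with TCDD, 145 bases with trichloroethylene and 131.5 bases in controls at 24 h. Its estimated counts averaged 1177 with TCDD, 761 with trichloroethylene and 397 in controls, a wider gap than in TPM. At 6 h its log2 change passed the test with none of the compounds. That of ENSRNOT00000034810 was -0.23 ± 0.29 with TCDD and -0.38 ± 0.29 with trichloroethylene (SE; edgeR adjusted p = 0.849 and 0.548). With acetaminophen it was 0.40 ± 0.29 and with gentamicin -0.11 ± 0.29 (adjusted p = 0.277 and 0.86).

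**Figure D3:**
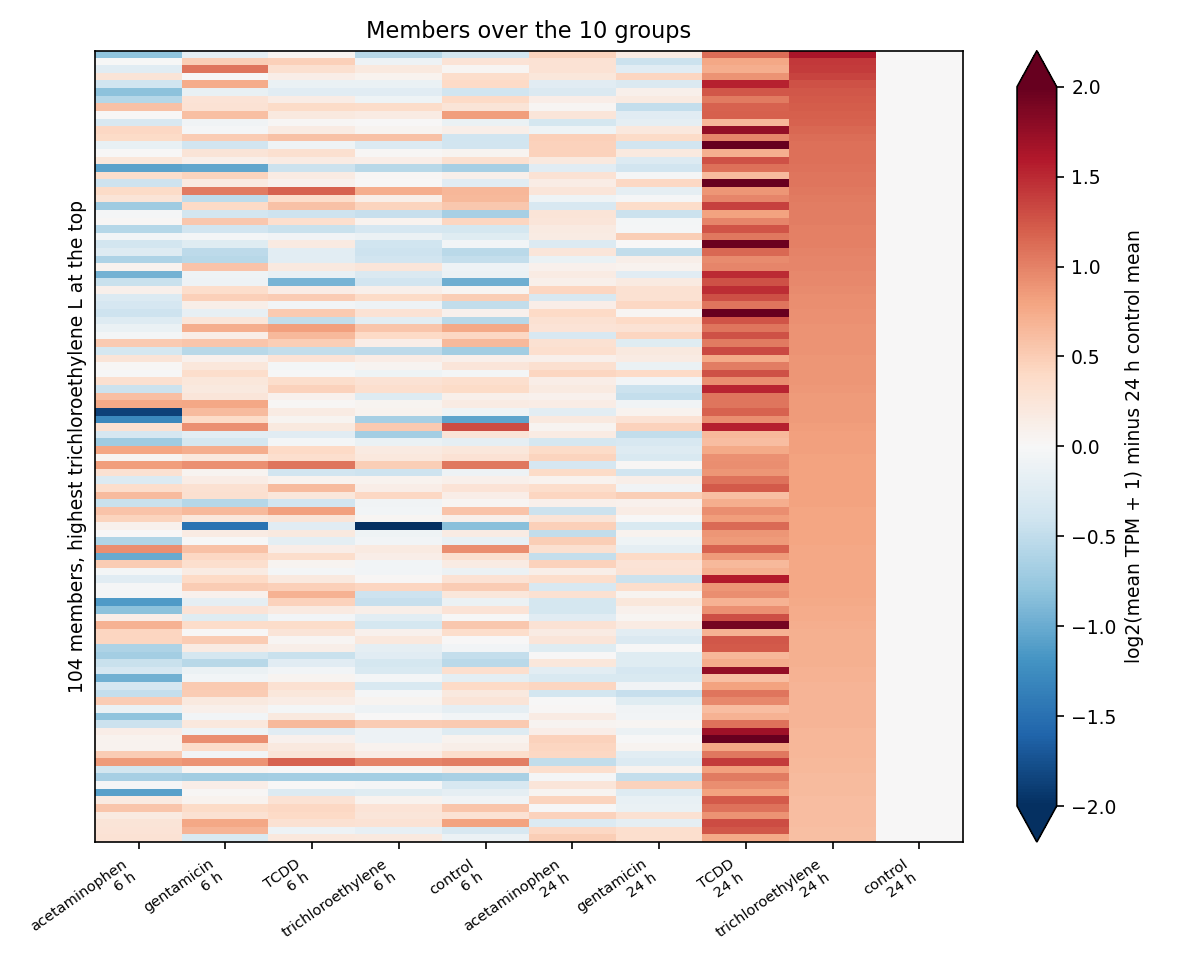
Rows are the 104 members, ordered by trichloroethylene L with the highest at the top, and columns the 10 groups (compound and hours of exposure). Colour gives log2(mean TPM + 1) minus that of the 24 h control, cut at 2 and -2. The TCDD and trichloroethylene columns at 24 h are red in every row, as the rule requires, and the 6 h columns mix both colours.

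Over all 10 groups, TCDD and trichloroethylene at 24 h held the 2 highest means in 92 members, and in 12 another group was among the 2 highest. The rule itself places these 2 groups above every other 24 h group in each member, so only the 6 h groups could outrank them. The highest mean was TCDD at 24 h in 74 members, trichloroethylene at 24 h in 28 and TCDD at 6 h in 2. The lowest mean was most often acetaminophen at 6 h (30 members) or gentamicin at 24 h (25 members), while the 24 h control was lowest in 9 and the 6 h control in 14. Typical levels, as the median over members of the group mean, were 26.2 TPM with TCDD and 20.7 TPM with trichloroethylene at 24 h. The other 8 groups lay between 9.54 TPM (acetaminophen at 6 h) and 13.4 TPM (TCDD at 6 h). Nothing is read from that gap at 24 h, where the rule used the same values.

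The course in time was also taken from values the rule used and is described without a test. Within TCDD cultures 102 members were higher at 24 h than at 6 h (32.2% of the range). The median log2 difference in level was 0.89, where the median of all transcripts in the range was -0.37. Within trichloroethylene cultures 103 members were higher at 24 h (53.2% of the range), with a median of 0.84 beside 0.05. In controls 62 members were lower at 24 h than at 6 h (34.1% of the range) and 42 higher (65.9%), with a median of -0.10 beside 0.16. The 24 h control is the base of every L, so the rule favours transcripts that are low there. Nothing is read from this control course. Gentamicin cultures (median -0.14) and acetaminophen cultures (median 0.27) followed the medians of all transcripts (-0.15 and 0.34) more closely.

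The 62 members that were lower in 24 h than in 6 h controls had median levels of 15.4 TPM in 24 h controls and 18.5 TPM in 6 h controls. At 24 h their median was 35.6 TPM after TCDD and 26.5 TPM after trichloroethylene. The other 42 had 23.4 TPM after TCDD, 18.4 TPM after trichloroethylene and 9.22 TPM in controls at 24 h, and 6.72 TPM in controls at 6 h. Median L was nearly the same in both sets, at 1.03 and 1.06 with TCDD and at 0.81 and 0.85 with trichloroethylene. Set against the 6 h controls instead, the 24 h level was at least 0.6 higher (log2) in 78 members with TCDD and in 66 with trichloroethylene. It was so with both in 61 members and with neither in 21, and it was below the 6 h control in 1 member with TCDD and in 5 with trichloroethylene.

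The 6 h libraries give values that the rule did not use, apart from the 6 h controls' part in the range of 1 to 500 TPM. All 104 members passed the filter on low counts. With TCDD at 6 h, edgeR called 0 members and 0% of the 15990 tested transcripts; DESeq2 and limma also called 0 members. At an unadjusted p under 0.05 there were 6 members, 5.77% beside 7.03% of all transcripts. That count was 3 without control replicate 2, 4 without control replicate 3 and 14 with fragment length as a covariate. The fitted log2 changes of all members had a median of -0.07, beside 0.03 over all tested, with 42 above 0 and 62 below (59.6%, beside 44.7% of all tested). In TPM, every TCDD library lay above both controls in 28 members (37.2% of the range) and below both in 6 (5.37%). The lowest was -1.45 and the highest 1.36. No difference of the members from control was thus detectable with TCDD at 6 h, where a member's median SE was 0.21.

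Trichloroethylene at 6 h also gave 0 calls among the members and 0% of all transcripts with edgeR, and 0 members with DESeq2 and with limma. The members leaned downward: the fitted log2 change was below 0 in 77 members (74.0%), beside 47.0% of all tested transcripts, with medians of -0.20 and 0.01. Against the same 2 controls, 58 members were below 0 with acetaminophen (55.8%, beside 49.8%) and 60 with gentamicin (57.7%, beside 48.3%). In these fitted counts the lean was thus shared by all 4 compounds and largest here. In TPM, the log2 ratio to the 6 h controls was above 0 in 68 members with TCDD (65.4%, beside 77.4% of the range). It was above 0 in 58 with gentamicin (55.8%, beside 65.1%), 41 with acetaminophen (39.4%, beside 43.9%) and 39 with trichloroethylene (37.5%, beside 70.7%). At an unadjusted p under 0.05 there were 18 members with trichloroethylene (17.3%, beside 12.9%), 2 above and 16 below control. In TPM, every trichloroethylene library lay below both controls in 26 members (9.98% of the range) and above both in 12 (40.5%). In 1 member no trichloroethylene library at 6 h had a count. With only the trichloroethylene and control libraries of 6 h in the fit, 3 of 99 tested members passed (3.03%), all lower, against 3.22% of all transcripts in that fit (2.17% lower). Fragments averaged 273 ± 4.74 bases with trichloroethylene at 6 h (n = 3) and 260.2 ± 4.31 bases in controls (n = 2). With fragment length as a covariate the members at an unadjusted p under 0.05 numbered 6. They numbered 6 without control replicate 2, 10 without control replicate 3 and 8 without trichloroethylene replicate 2.

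TCDD and trichloroethylene were set against each other at 6 h, where neither group entered the rule. No member passed with edgeR, DESeq2 or limma (0% of all transcripts with edgeR), and 13 had an unadjusted p under 0.05 (12.5%, beside 8.96%). The fitted log2 difference was above 0, higher with TCDD, in 85 members (81.7%, beside 52.0% of all tested transcripts), with a median of 0.13 beside 0.01. Without TCDD replicate 3, the library with the long fragments, 27 members had an unadjusted p under 0.05. With fragment length as a covariate that number was 8. In both fits 0 members and 0% of all transcripts passed after adjustment. The share of all transcripts at an unadjusted p under 0.05 was not taken in these fits.

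**Figure D4:**
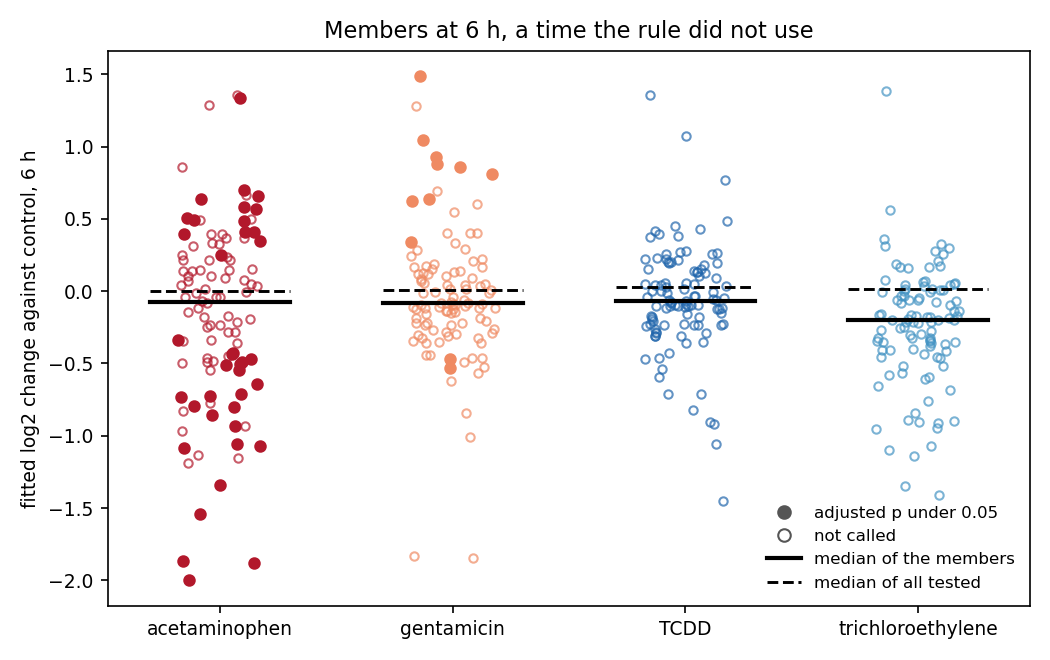
Fitted log2 changes against the 6 h controls are shown for the members (points) in the 4 compounds; filled points passed an edgeR adjusted p of 0.05. Solid bars are member medians (-0.07 for TCDD, -0.20 for trichloroethylene, and -0.08 for each of acetaminophen and gentamicin) and dashed bars the medians of all 15990 tested transcripts; 1 member without a count in trichloroethylene is not drawn.

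Acetaminophen changed more members at 6 h than any other compound. It raised 14 (24.2% of all transcripts rose) and lowered 24 (24.5% fell), 38 in all or 36.5% of the members, against 48.8% of all transcripts. In TPM, the libraries of 25 members lay wholly above both controls (32.6% of the range) and those of 38 wholly below (42.5%). The rises had a median log2 change of 0.50 and ran from 0.25 to 1.34. The falls had a median of -0.76 and ran from -0.34 to -2.00, and 8 of them exceeded 2-fold. At 24 h the 24 members that had fallen had acetaminophen L values between -0.47 and 0.49 with a median of -0.08, within the limits the rule sets. When either control replicate was left out, fewer members, and fewer of all transcripts, were called. The lone remaining control was then assumed to vary like the other groups.

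ENSRNOT00000025408 (2413 bases) showed the largest fall. At 6 h it had 3.62, 2.94 and 3.37 TPM with acetaminophen, 24.6, 24.7 and 20.8 TPM with gentamicin and 13.2 and 14.4 TPM in controls. The 3 groups did not overlap, with acetaminophen lowest and gentamicin highest. The log2 changes against control were -2.00 ± 0.12 with acetaminophen and 0.64 ± 0.11 with gentamicin (SE; edgeR adjusted p = 1.57e-12 and 0.000222). Compared directly with gentamicin, acetaminophen gave ENSRNOT00000025408 a log2 change of -2.64 ± 0.11 (edgeR adjusted p = 1.45e-15).

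With TCDD at 6 h it had 14.5, 18.1 and 17.3 TPM and with trichloroethylene 15.4, 15.4 and 15.7 TPM. All of these were above both controls, with log2 changes of 0.13 ± 0.11 and 0.04 ± 0.11 that did not pass (edgeR adjusted p = 0.767 and 0.902 for ENSRNOT00000025408). At 24 h the TCDD libraries had 34.3, 28.7 and 40.9 TPM and the trichloroethylene libraries 29.2, 25.0 and 27.6 TPM. It then had 11.7, 12.3 and 13.6 TPM with acetaminophen, 16.9, 16.5 and 12.9 TPM with gentamicin and 15.1, 15.1 and 13.9 TPM in controls. The acetaminophen libraries were close to the controls at 24 h, though all 3 lay below them.

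Gentamicin at 6 h raised 9 members (8.34% of all transcripts rose) and lowered 2 (4.88% fell), 11 in all or 10.6% of the members, against 13.2%. In TPM, 27 members lay wholly above both controls (36.8% of the range) and 10 wholly below (14.1%). The rises had a median log2 change of 0.86 and ran from 0.34 to 1.49. The member with the largest rise (633 bases; chosen after its values were seen) had 13.8, 14.1 and 20.5 TPM with gentamicin and 2.69 and 7.91 TPM in controls. Its log2 change was 1.49 ± 0.41 (SE; edgeR adjusted p = 0.0152), and its 2 controls differed widely. Its estimated counts were not whole, so a shift between isoforms cannot be told from a change in its level. Fewer members, and fewer of all transcripts, were called when either control replicate was left out, which leaves a lone control. With fragment length as a covariate the called members numbered 20, with 9 higher and 11 lower, or 19.2% of the members against 19.7% of all transcripts.

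ENSRNOT00000046181 (1653 bases) had the largest called fall with gentamicin. At 6 h it had 36.5, 33.3 and 34.2 TPM with gentamicin, 49.8, 51.3 and 53.6 TPM with acetaminophen and 48.5 and 44.0 TPM in controls. The gentamicin libraries lay below all others of these groups, and the acetaminophen libraries above both controls. Its log2 change was -0.53 ± 0.14 with gentamicin (SE; edgeR adjusted p = 0.0103) and 0.21 ± 0.14 with acetaminophen (adjusted p = 0.208). Without control replicate 2 the gentamicin change of ENSRNOT00000046181 was -0.45 and did not pass (adjusted p = 0.156).

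At 24 h the same transcript had 80.9, 65.8 and 80.3 TPM with TCDD, 55.1, 58.9 and 58.4 TPM with trichloroethylene and 30.5, 34.7 and 42.9 TPM in controls. TCDD stood above trichloroethylene in every library, and both above all controls. With gentamicin it had 31.8, 31.7 and 29.5 TPM and with acetaminophen 52.1, 46.5 and 47.0 TPM. The acetaminophen libraries were all above the controls at 24 h while the gentamicin libraries overlapped them.

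**Figure D5:**
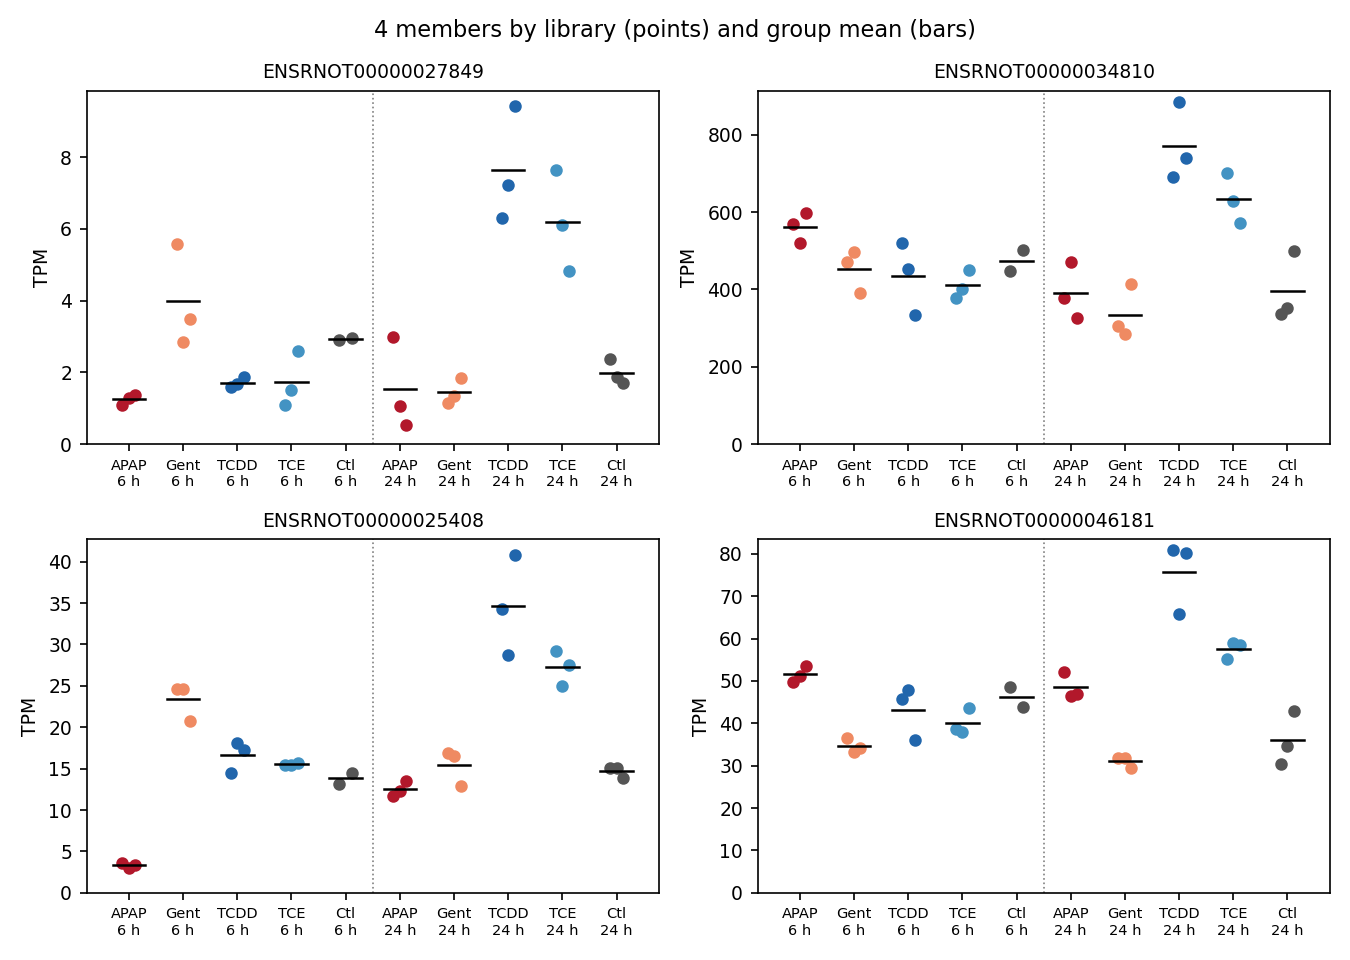
TPM of 4 members in each of the 29 libraries (points) with group means (bars), at 6 h left of the dotted line and at 24 h right of it; APAP is acetaminophen, Gent gentamicin, TCE trichloroethylene and Ctl control. At 24 h all 6 TCDD and trichloroethylene libraries lie above the 3 controls in each panel, and ENSRNOT00000025408 shows the low acetaminophen libraries at 6 h (2.94 to 3.62 TPM).

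The direct comparison of acetaminophen with gentamicin at 6 h differed in 46 members (44.2%, against 54.5% of all transcripts). Of these, 16 were higher with acetaminophen (26.1% of all) and 30 lower (28.3%). The members' median log2 difference was -0.05, beside -0.02 for all tested transcripts.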

How the data were processed

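RNA-seq of 29 libraries was analysed, grouped by treatment and time as labelled. TRIzol extraction and removal of DNA preceded standard Illumina library preparation, per the labels' protocols. The authors quantified transcripts with the pseudoaligner kallisto 0.43, per the submitters' processing notes. The deposited tables give the authors' estimated counts (20% of the values were not whole, at a tolerance of 1e-06 counts) and TPM, which scales those counts by effective length to a fixed total per library. The annotation release and strand setting of that step are not given in the sources used.

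Members were found from TPM, with a pseudocount of 1 TPM. Estimated counts were rounded, filtered with filterByExpr (minimum count 10; 15990 transcripts left, all 104 members among them) and scaled with TMM factors. In edgeR 4.0.16 (R 4.3.3), 1 quasi-likelihood model with a coefficient per group (19 residual degrees of freedom) gave the 6 h comparisons, with calls at an adjusted p (Benjamini-Hochberg over all tested transcripts) under 0.05; the SE is the log2 change divided by the square root of F. The steps were tested on simulated counts. No replicate pair was a duplicate: chi-square per degree of freedom was 2.98 or more in 28 pairs. The lowest total of 8243698 counts limits precision least for abundant members and most for those near 1 TPM.

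The members and lists were chosen with earlier results of these data known. The rule for named transcripts took the member with the highest lower ratio, the most abundant member, and the called members with the largest falls at 6 h with acetaminophen and with gentamicin. Gene lists and cell type markers fixed by gene name were not used, since identifiers could not be paired. Alternatives were DESeq2 1.42.0, limma 3.58.1 on log2(TPM + 1), other factors and filters, a replicate block, a fragment length covariate, the compared groups alone and leaving out libraries. Fragment length is the median, over transcripts of at least 1000 bases, of length minus effective length.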

Additional observations from a re-analysis of the deposited data

How the results depend on the processing

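The rule found 105 transcripts with a pseudocount of 0.5 (94 of them members), 138 with TPM scaled by TMM factors (78 members) and 177 with CPM, which corrects for library total alone, in place of TPM (81 members). Leaving out 1 library of 24 h gave between 89 and 115, of which 72 to 103 were members; the fewest members were kept without control replicate 1. Leaving out 1 library of 6 h, the called members numbered 24 to 34 for acetaminophen, 5 to 11 for gentamicin and 34 to 40 between these compounds. With a compound library left out, 0 members were called for TCDD, for trichloroethylene and between these 2 (at most 0.00626% of all transcripts). In such fits acetaminophen called 30.8% to 32.7% of the members, beside 44.6% to 45.2% of all transcripts. For gentamicin these shares were 8.65% to 10.6%, beside 9.86% to 10.6%. Between acetaminophen and gentamicin they were 32.7% to 38.5%, beside 49.7% to 51.1%. With the fragment length covariate gentamicin gave 20, and with only the compared groups trichloroethylene gave 3. Apart from the fits with a lone control, every other planned setting kept each 6 h count within 1.5 times.

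With the replicate block the counts were 35 for acetaminophen (33.7%, against 47.7% of all transcripts) and 10 for gentamicin (9.62%, against 12.3%). They were 46 between these compounds (44.2%, against 53.9%) and 0 for TCDD, for trichloroethylene and between those (0% of all transcripts). Same-numbered libraries of the compared groups correlated between -0.14 and 0.05 in their deviations, so the numbers are not taken as pairs.

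Among the identified members, 3 changes at 6 h turned in sign when a library was left out, none of them called. For ENSRNOT00000027849 with gentamicin they ran from -0.0148 (without gentamicin replicate 1) to 0.51. For ENSRNOT00000034810 with gentamicin they ran from -0.19 to 0.0204 (without gentamicin replicate 3). For ENSRNOT00000025408 with trichloroethylene they ran from -0.0131 (without control replicate 2) to 0.0936. The cause was not tested. The acetaminophen change of ENSRNOT00000027849 passed with the fragment length covariate (-1.27) and with limma (-0.80). With only the compared groups, the acetaminophen changes of ENSRNOT00000034810 (0.40) and ENSRNOT00000046181 (0.22) passed. Settings chosen after the data were seen moved the members' median fitted change at 24 h from 1.55 with TMM factors to 1.46 with total counts and 1.19 with the fragment length covariate for TCDD, and from 0.91 to 1.00 and 0.72 for trichloroethylene. For acetaminophen it was 0.05 with TMM factors, 0.26 with total counts and -0.19 with the covariate, and for gentamicin 0.11, -0.11 and -0.07. Members near 1 TPM rest on few counts, so their 6 h changes are less precise, and detection by level was not tested. A member with a control mean of 1.19 TPM was still called at 6 h with acetaminophen. Its log2 change was 1.34 ± 0.39 (SE, edgeR adjusted p = 0.00548).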
